A study of Drosophila melanogaster with 9 samples.

Results

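The vacuolar proton pump, or V-ATPase, was followed through its subunit genes, whose Drosophila symbols start with Vha. Its members were the probe sets that the platform annotation gives such a symbol, with 1 probe set per gene, the one with the highest mean over the 9 arrays. This gave 31 genes of the 11983 named on the array, from 32 of 18769 tested probe sets, since only Vha16-1 had another. The choice of probe set did not use the differences between genotypes. RNA of dissected indirect flight muscles, from Drosophila melanogaster males kept at 25 °C and aged 1 to 2 days as adults, was measured on Affymetrix Drosophila Genome 2.0 arrays. The 3 genotypes were Canton-S, a wild-type laboratory strain, Act88FKM88, which the study describes as an actin null, and Mhc7, described as a myosin null, with 3 arrays each, labelled as biological replicates, so that p-values measure the spread between these. All flies shared sex, age and rearing, and the labels give neither zygosity nor the genetic background of the alleles.

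The V-ATPase is a rotary machine that spends ATP to move protons across membranes, and it acidifies lysosomes and other compartments in all animal cells. A cytosolic head, V1, splits ATP and turns a central stalk, while a membrane part, V0, holds a ring of proteolipids that carries protons past a fixed subunit. V1 can detach from V0, which stops the pump, and active pumps on lysosomes also take part in nutrient sensing by the kinase complex TORC1. Flies carry several paralogues for most subunits. Epithelia such as the Malpighian tubule are known for high levels of the common set, and several of the remaining copies are known from testis or neurons. In muscle, as elsewhere, lysosomes made acidic by this pump receive the cargo of autophagy.

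By sector, 11 members were V1 subunits, 18 were V0 subunits and 2 were accessory proteins. A set of 13 was taken as the widely expressed copies from general knowledge of the family: Vha55, Vha44, Vha36-1, Vha26, Vha14-1, Vha13 and VhaSFD in V1, Vha100-2, Vha16-1, VhaPPA1-1, VhaAC39-1 and VhaM9.7-b in V0, and the accessory VhaAC45. The other 18 were treated as further paralogues, 4 in V1, 13 in V0 and the accessory VhaAC45RP. The only catalytic A subunit among the members was Vha68-3. Its paralogues Vha68-1 and Vha68-2 were not analysed here, so the ATP-splitting subunit of the common enzyme is missing from the comparison.

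Act88F, the gene mutated in Act88FKM88, had log2 levels of 14.10, 14.32 and 14.36 in Canton-S, 11.57, 11.79 and 11.03 for Act88FKM88 and 14.10, 14.25 and 14.14 for Mhc7. The myosin gene Mhc was not analysed here. Of 11 flight muscle markers 10 were measured and none lay below 4 in all arrays, with a summed level of 15.67 to 15.98 (log2) in Canton-S, 15.59 to 15.83 for Act88FKM88 and 15.99 to 16.11 for Mhc7. This sum contains Act88F itself, which fell in Act88FKM88 by 2.80 on the log2 scale. Within the list the Z-disc gene Zasp66 rose in both mutants (2.11 ± 0.13 and 2.02 ± 0.13, limma adjusted p = 7.12e-05 and 1.01e-04), and the troponin C gene TpnC4 gave -0.68 ± 0.12 in Mhc7 (limma adjusted p = 0.0111). The upper end of the scale differed between genotypes: the 95th percentile of an array averaged 7.36 ± 0.11 (SD, n = 3) for Canton-S, 7.74 ± 0.20 for Act88FKM88 and 7.99 ± 0.20 for Mhc7. Well-expressed genes as a class therefore lay higher in both mutants, and the median log2 difference over the 1236 probe sets with a mean of at least 7 was 0.39 in Act88FKM88 and 0.55 in Mhc7, against -0.03 and -0.01 over all probe sets. Values of the pump genes are read beside these medians.

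The 13 widely expressed subunits were all detected well above the body of the array, from 6.68 (Vha44 in Canton-S 3) to 11.32 (Vha16-1 in Act88FKM88 2), while the median of all probe sets lay between 3.05 and 3.12. The lowest of their means stood at the 94.5th percentile of all probe sets. By contrast, 15 of the 18 further paralogues stayed below 4 in all 9 arrays, where the 75th percentile of an array was 3.65 to 3.78. Flight muscle thus showed signal for 1 copy of each measured subunit type other than A and, faintly, for a few others.

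**Figure D1:**
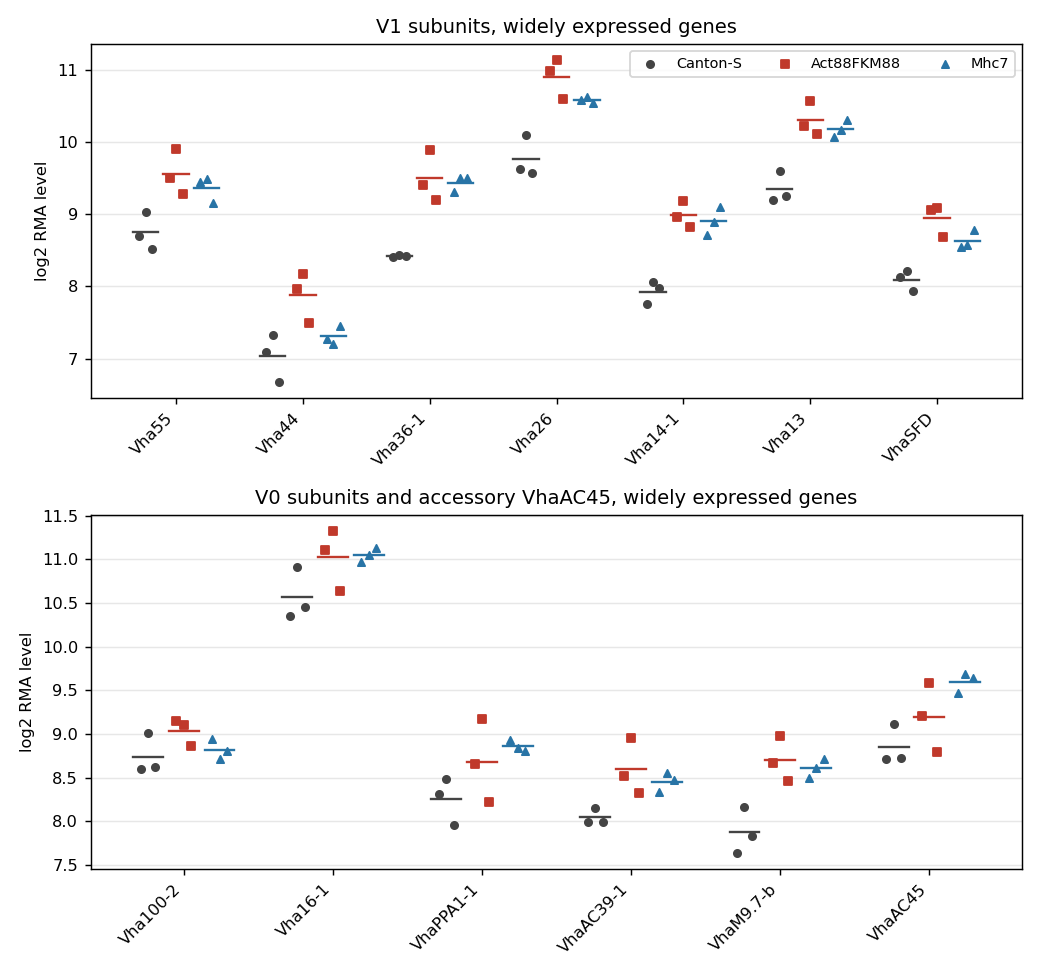
Log2 RMA level (vertical axis) of the 13 widely expressed subunit genes in each array, V1 above and V0 with VhaAC45 below. Each point is 1 array, coloured by genotype, and bars are means of 3 arrays. For Vha36-1, Vha26 and Vha14-1 every mutant array lies above all Canton-S arrays. The same holds for Vha13, VhaSFD, Vha55, VhaM9.7-b and VhaAC39-1.

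In Act88FKM88 flight muscle, 3 stalk genes of V1 stood 2.09 to 2.21 times as high as in wild type, and the membrane sector differed less. Vha26 (subunit E, peripheral stalk), Vha36-1 (subunit D) and Vha14-1 (subunit F), the latter both of the central rotor stalk, rose. No pump gene fell. A call required 2-fold and a limma adjusted p below 0.1 (Benjamini-Hochberg over all probe sets), the study's own limits. Thus 3 of 31 members were called higher, where 1.48% of all probe sets were, and 0 lower, where 0.330% of all were. The 3 were among the 13 members with a mean of at least 7, and 8.82% of all probe sets at that level were called higher. At an unadjusted p under 0.05, limma gave 12 members higher and 0 lower, where 8.96% and 5.67% of all probe sets were. Of the 12, 10 were widely expressed genes with a mean of at least 7, a level at which this share was not counted. SAM, the test the study names, also called 3 higher and 0 lower, where 0.799% and 0.139% of all were.

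Vha26 had levels of 9.63, 10.10 and 9.57 in the 3 Canton-S arrays and 10.99, 11.14 and 10.59 for Act88FKM88. The genotypes did not overlap, and the log2 difference was 1.14 ± 0.17 (SE, n = 3 arrays per genotype; limma adjusted p = 0.00812). Vha36-1 stood at 8.41, 8.43 and 8.43 in Canton-S, the tightest group of any widely expressed subunit, and at 9.40, 9.89 and 9.20 in Act88FKM88. Its difference was 1.08 ± 0.16 (limma adjusted p = 0.00781), and without Act88FKM88 2, the highest array, it was 0.88, short of 2-fold. Vha14-1 was measured at 7.76, 8.06 and 7.97 in Canton-S and 8.96, 9.18 and 8.83 in Act88FKM88. That difference of 1.06 ± 0.13 (limma adjusted p = 0.00458) was 0.98 without Canton-S 1 and 0.97 without Act88FKM88 2, both short of 2-fold with adjusted p still under 0.1. The count of 3 became 1 without Act88FKM88 2 and 5 without Act88FKM88 3.

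The remaining 4 widely expressed V1 genes differed in the same direction by less than 2-fold. Vha13, the peripheral stalk subunit G, went from 9.19, 9.60 and 9.26 in Canton-S to 10.22, 10.57 and 10.11, a difference of 0.95 ± 0.15 (limma adjusted p = 0.0101). VhaSFD, the regulatory subunit H, went from 8.13, 8.21 and 7.94 to 9.06, 9.08 and 8.69, with 0.85 ± 0.13 (limma adjusted p = 0.00936). In both genes the lowest mutant array was above the highest wild-type array. Vha44, subunit C that joins head and membrane part, had 7.09, 7.33 and 6.68 against 7.97, 8.17 and 7.49, a difference of 0.84 ± 0.20 (limma adjusted p = 0.0642). Vha55, the nucleotide-binding subunit B, had 8.70, 9.03 and 8.52 against 9.50, 9.91 and 9.28, a difference of 0.81 ± 0.18 (limma adjusted p = 0.0501). All 7 widely expressed V1 genes therefore had an adjusted p under 0.1 without regard to fold, with differences from 0.81 to 1.14 and a median of 0.95.

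On that rule of adjusted p alone, 9 of 31 members were higher, where 3.94% of all probe sets were. No member was lower, where 1.14% of all were. The 9 were among the 13 members with a mean of at least 7, and 23.8% of all probe sets at that level were higher. Without Canton-S 1 the number of 9 members became 5. The 9 were the 7 widely expressed V1 genes and 2 of the 5 widely expressed V0 genes. VhaM9.7-b, the small membrane subunit e, had 7.64, 8.17 and 7.83 in Canton-S and 8.67, 8.98 and 8.46 in Act88FKM88, a difference of 0.82 ± 0.16 (limma adjusted p = 0.0309). VhaAC39-1, subunit d that couples the stalk to the ring, had 7.99, 8.15 and 7.996 against 8.52, 8.96 and 8.33, with 0.55 ± 0.15 (limma adjusted p = 0.0953). Among the widely expressed V0 genes, these were the 2 whose Act88FKM88 and Canton-S arrays did not overlap.

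For the widely expressed proton-carrying parts of V0 the genotypes overlapped. Vha16-1, the main proteolipid c of the ring, stood at 10.35, 10.91 and 10.45 in Canton-S and 11.11, 11.32 and 10.64 in Act88FKM88. Its difference was 0.45 ± 0.19 (95% interval 0.02 to 0.88; limma adjusted p = 0.314). A second probe set for Vha16-1 gave 0.13 ± 0.24 (limma adjusted p = 0.875). VhaPPA1-1, the ring subunit c'', had 8.32, 8.49 and 7.96 against 8.66, 9.18 and 8.22, a difference of 0.43 ± 0.22 (95% interval -0.07 to 0.93; limma adjusted p = 0.425). Vha100-2, the fixed subunit a with the proton half-channels, had 8.59, 9.01 and 8.62 against 9.15, 9.10 and 8.86, with 0.29 ± 0.13 (95% interval -0.01 to 0.59; limma adjusted p = 0.364). The intervals of Vha16-1, VhaPPA1-1 and Vha100-2 end below 2-fold, and none of the 3 passed. The accessory glycoprotein gene VhaAC45 gave 0.35 ± 0.19 (limma adjusted p = 0.463).

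**Figure D2:**
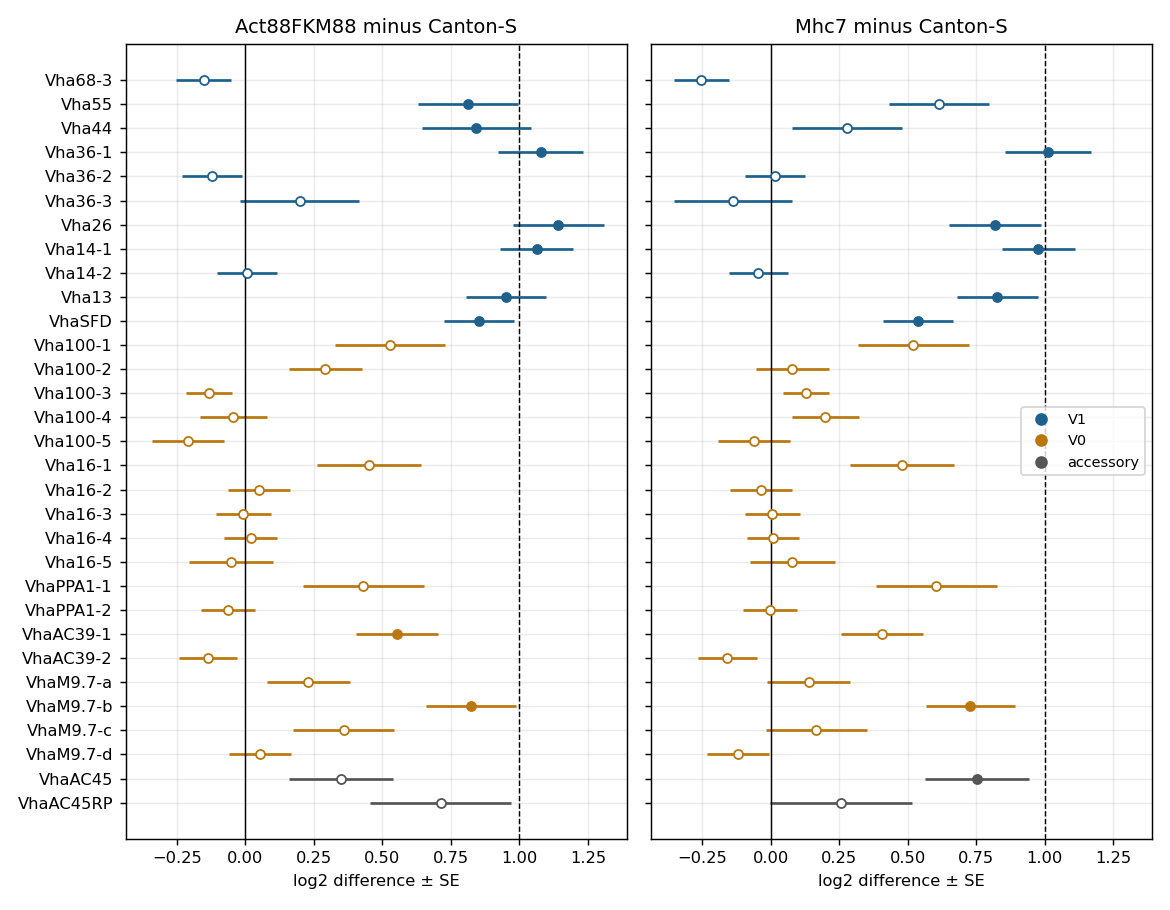
Log2 difference from Canton-S (horizontal axis, ± SE, 3 arrays per genotype) of all 31 Vha genes in Act88FKM88 (left) and Mhc7 (right), coloured by sector. Filled points have a limma adjusted p under 0.1 and the dashed line marks 2-fold; the filled points are widely expressed genes, mostly of V1.

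For Mhc7 the same comparison gave 1 called member, the rotor stalk gene Vha36-1, which rose, and no member that fell. The shares over all probe sets were 2.40% higher and 0.389% lower. Vha36-1 was 1 of the 13 members with a mean of at least 7, and 21.8% of all probe sets at that level were higher. Vha36-1 had 9.31, 9.49 and 9.50 in the Mhc7 arrays, all above the 8.43 of the highest Canton-S array, and its difference was 1.01 ± 0.16 (limma adjusted p = 0.00636). That call sat at the 2-fold limit: the difference was 0.98 without Mhc7 2 and also 0.98 without Mhc7 3. The count of 1 became 0 without either of these arrays, and 2 without Canton-S 2 or Mhc7 1. SAM called 1 higher and 0 lower, where 2.51% and 0.288% of all probe sets were. At an unadjusted p under 0.05 limma gave 12 members higher and 1 lower, where 10.3% and 6.52% of all were. Of these 12, 11 were widely expressed genes with a mean of at least 7, a level at which this share was not counted.

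Vha14-1, the rotor subunit F, was just short of 2-fold, with 8.72, 8.89 and 9.10 in Mhc7 and a difference of 0.98 ± 0.13 (limma adjusted p = 0.00334). By adjusted p alone 7 of 31 members were higher, where 5.58% of all probe sets were. All 7 were among the 13 members with a mean of at least 7, where 41.6% of probe sets at that level were higher. The 7 were Vha36-1, Vha14-1, Vha13 (0.83 ± 0.15), Vha26 (0.82 ± 0.17), VhaM9.7-b (0.73 ± 0.16), VhaAC45 (0.75 ± 0.19) and VhaSFD (0.54 ± 0.13), 5 of V1, 1 of V0 and 1 accessory. No member was lower on that rule, where 1.52% of all were. Without Canton-S 1 the number of 7 was 3, and without Mhc7 2 or Mhc7 3 it was 4. For the 13 widely expressed genes the median difference was 0.61, beside 0.55 over all probe sets with a mean of at least 7.

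VhaAC45, which encodes an accessory membrane glycoprotein, was among the 7, whereas in Act88FKM88 its genotypes overlapped. Its levels were 8.71, 9.11 and 8.72 in Canton-S, 9.21, 9.58 and 8.80 for Act88FKM88 and 9.47, 9.69 and 9.64 for Mhc7. The direct difference between the mutants did not pass (-0.40 ± 0.19, limma adjusted p = 0.413). Vha44 went the other way: its Mhc7 levels of 7.27, 7.20 and 7.45 overlapped with those of Canton-S (0.28 ± 0.20, limma adjusted p = 0.567). Vha55 gave 0.61 ± 0.18 (limma adjusted p = 0.109), with no overlap.

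The V0 genes of Mhc7 were tightly grouped. Vha16-1 stood at 10.97, 11.05 and 11.13, a difference of 0.48 ± 0.19 from Canton-S (limma adjusted p = 0.238). VhaPPA1-1 had 8.93, 8.84 and 8.81, with 0.60 ± 0.22 (limma adjusted p = 0.196), and VhaAC39-1 had 8.33, 8.55 and 8.47, with 0.41 ± 0.15 (limma adjusted p = 0.200). For these 3 the Mhc7 arrays lay above all Canton-S arrays although the adjusted p did not pass, and 11 of the 13 widely expressed genes showed no overlap (11.8% of all probe sets were higher with no overlap, and 61.5% of those with a mean of at least 7). In Act88FKM88 the same count was 9 of 13, against 9.75% and 43.2%. Of the 13, Vha100-2 was nearest to wild type, with 8.94, 8.71 and 8.81 in Mhc7 and a difference of 0.08 ± 0.13 (95% interval -0.22 to 0.38; limma adjusted p = 0.850).

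Set directly against each other, the mutants gave no called pump gene in limma or SAM (in limma 0.757% of all probe sets were higher in Act88FKM88 and 1.03% lower, in SAM 0.783% and 1.07%). By adjusted p alone 0 members differed, where 1.66% of all were higher and 2.28% lower. At an unadjusted p under 0.05 limma gave 2 members higher in Act88FKM88 and 1 lower, where 5.67% and 7.57% of all were. The arrays of the mutants did not overlap for 2 members higher in Act88FKM88, Vha44 and VhaM9.7-d, and 1 lower, Vha100-3, where 8.07% and 10.1% of all probe sets were. Among the 13 widely expressed genes the differences ran from -0.40 to 0.57 with a median of 0.13. Vha44 had the largest, 0.57 ± 0.20 (95% interval 0.11 to 1.02; limma adjusted p = 0.244), and its 3 Act88FKM88 arrays, from 7.49, lay above the 7.45 of the highest Mhc7 array. VhaSFD gave 0.32 ± 0.13 (limma adjusted p = 0.333). A moderated F-test over all 3 genotypes gave an adjusted p under 0.1 for 8 of the 31 members, where 8.81% of all probe sets did. All 8 were among the 13 widely expressed members, which have a mean of at least 7. The share of all probe sets at that level was not counted for this test. Both mutants share the Canton-S arrays, so their differences from it are not independent of each other.

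The 2 sectors were then compared inside each array, where a shift of the whole array cancels. The mean level of the 7 widely expressed V1 genes minus that of the 5 widely expressed V0 genes was -0.16, -0.27 and -0.23 in the Canton-S arrays. It was 0.23, 0.20 and 0.27 for Act88FKM88, and -0.00, 0.05 and 0.08 for Mhc7. The 3 genotypes did not overlap: the means were -0.22 ± 0.05 (SD, n = 3) in Canton-S, 0.04 ± 0.04 in Mhc7 and 0.23 ± 0.04 in Act88FKM88. No test of this difference was made, because the genes were grouped with earlier results known, and a level on 1 probe set is not comparable with that on another, so only the change between genotypes has a meaning here.

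Centring does not alter this measure, and the order of the genotypes was kept under quantile normalization, cyclic loess and averaging of probe sets. With quantile normalization repeated it ran from -0.28 to -0.15 in Canton-S, 0.003 to 0.07 in Mhc7 and 0.22 to 0.24 in Act88FKM88, and cyclic loess gave -0.28 to -0.17, 0.002 to 0.09 and 0.20 to 0.27. Averaging both probe sets of Vha16-1 shifted it to between -0.17 and -0.08, 0.12 and 0.22, and 0.35 and 0.41. The array means themselves varied more. The mean of the 13 genes was 8.501, 8.81 and 8.46 in Canton-S, 9.34, 9.62 and 9.04 for Act88FKM88, and 9.16, 9.22 and 9.26 for Mhc7. All 13 genes were highest in array 2 among the Canton-S arrays and all 13 were lowest in array 3 among those of Act88FKM88. The widely expressed subunits thus differed together between replicates of Canton-S and Act88FKM88. In Mhc7 they did not: 2, 4 and 7 of the 13 were highest in arrays 1, 2 and 3. Act88FKM88 3 also had the lowest 95th percentile of its genotype, 7.57 against 7.70 and 7.96. Canton-S 2, at 7.35, lay between the 7.26 and 7.47 of the other Canton-S arrays. Whether other genes of like level followed the same order of arrays was not tested.

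**Figure D3:**
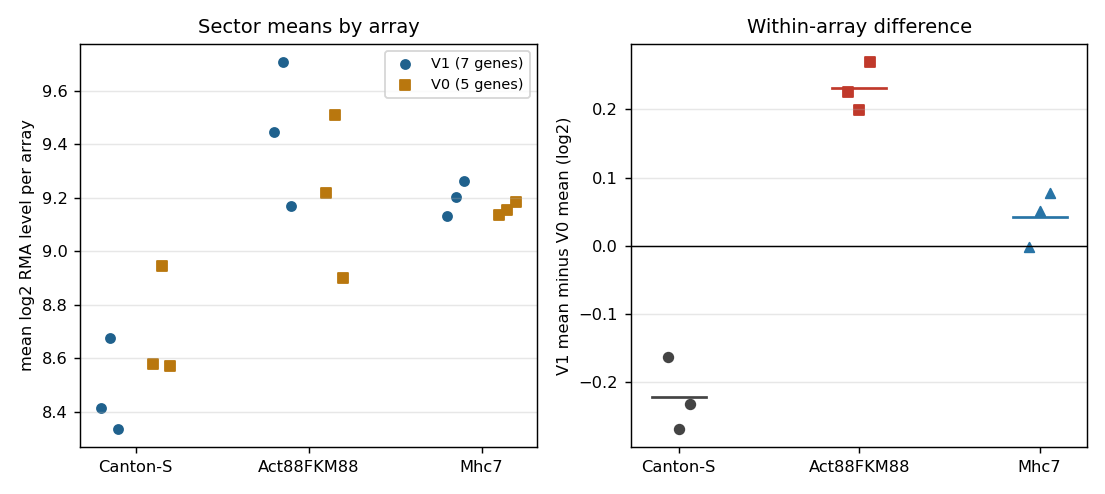
Left, mean log2 RMA level of the 7 widely expressed V1 genes and the 5 widely expressed V0 genes in each array; right, V1 mean minus V0 mean in the same array, with the mean of 3 arrays as a bar. The right panel separates the genotypes, with Canton-S below 0, Mhc7 near 0 and Act88FKM88 between 0.20 and 0.27.

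How far the pump genes exceed wild type depends on the scale. Over the 7 widely expressed V1 genes, the median difference of Act88FKM88 from Canton-S was 0.95 on the deposited values, 0.51 with quantile normalization repeated, 0.58 with cyclic loess and 0.44 after each array was centred on its ribosomal protein genes, a step that took the all-probe-set median to -0.54. The median for the 5 V0 genes was 0.45, -0.01, 0.08 and -0.06 in that order. No pump gene reached 2-fold under these 3 scalings. By adjusted p alone, Vha36-1, Vha26, Vha14-1 and Vha13 were higher under each of these 3 scalings, joined by VhaM9.7-b with cyclic loess (0.42, limma adjusted p = 0.0984). With centring, 12 of the further paralogues were lower at an adjusted p under 0.1 in Act88FKM88 and 3 in Mhc7, at differences of -0.72 to -0.46, close to the shift of all probe sets. Under quantile normalization Vha36-1 gave 0.60 (limma adjusted p = 0.0219), Vha26 0.60 (limma adjusted p = 0.0741) and Vha14-1 0.66 (limma adjusted p = 0.0045).

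In Mhc7 the V1 median was 0.82 on the deposited values, 0.05 with quantile normalization repeated, 0.31 with cyclic loess and 0.38 with centring, which took the median of all probe sets to -0.45. Its V0 median was 0.48, -0.14, -0.02 and 0.04. With quantile normalization repeated no member was higher at an adjusted p under 0.1, Vha36-1 gave 0.29 (limma adjusted p = 0.224), and Vha100-2 was lower (-0.66, limma adjusted p = 0.0789). Cyclic loess and centring each left Vha36-1 and Vha14-1 higher at an adjusted p under 0.1. The direction of the pump genes as a family in Mhc7 thus changed with the scale. In the direct comparison of the mutants under quantile normalization, Vha26, Vha14-1, VhaSFD and VhaAC39-1 had an adjusted p under 0.1, all 4 higher in Act88FKM88, against 0 on the deposited values.

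**Figure D4:**
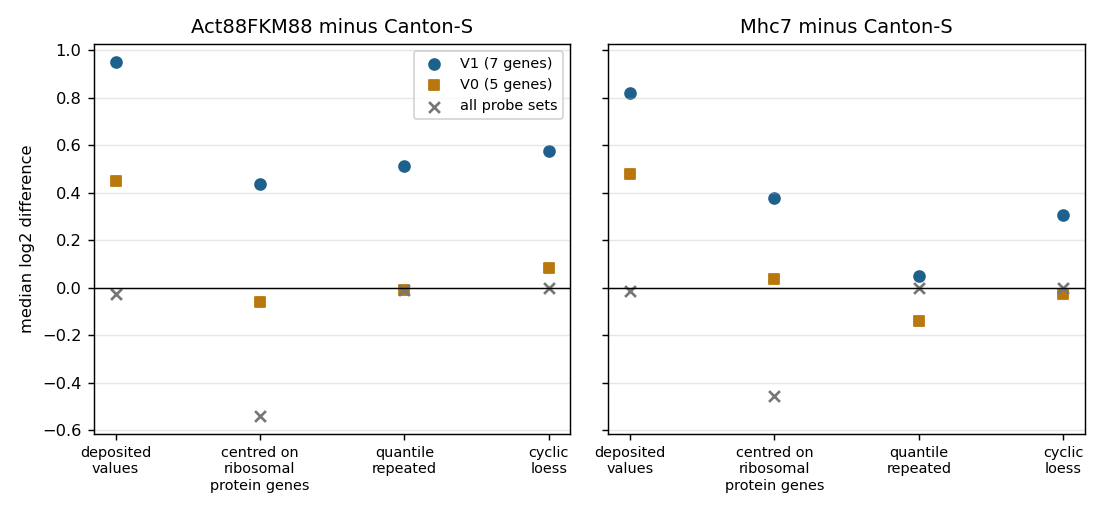
Median log2 difference from Canton-S (vertical axis) over the 7 widely expressed V1 genes, the 5 widely expressed V0 genes and all probe sets under the deposited values and 3 other scalings, for Act88FKM88 (left) and Mhc7 (right). In Act88FKM88 the V1 median stays between 0.44 and 0.95, while V0 lies near 0 on the 3 other scalings.

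None of the 18 further paralogues was called in any comparison (limma), and on the deposited values none had an adjusted p under 0.1. At an unadjusted p under 0.05, limma gave 2 of them higher and 0 lower in Act88FKM88 than in Canton-S, and 1 higher and 1 lower in Mhc7, shares near those of all probe sets (8.96% and 5.67% in Act88FKM88, 10.3% and 6.52% in Mhc7). Their median difference from Canton-S was -0.001 in Act88FKM88 and 0.01 in Mhc7. At these levels background limits any difference, so a change smaller than the background would not have been seen. All 4 further V1 copies stayed below 4: Vha68-3 (subunit A, 2.39 to 2.86), Vha36-2 and Vha36-3 (subunit D, 2.77 to 3.25 and 3.05 to 3.95) and Vha14-2 (subunit F, 2.58 to 2.95), where each pair of values gives the lowest and highest array. In V0 the stator copies Vha100-3, Vha100-4 and Vha100-5 lay between 2.59 and 3.62, and the proteolipid copies Vha16-2, Vha16-3, Vha16-4, Vha16-5 and VhaPPA1-2 between 2.63 and 3.42. The copies VhaAC39-2 of subunit d and VhaM9.7-a and VhaM9.7-d of subunit e lay between 2.82 and 3.60.

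Near background, 4 differences had no overlap with Canton-S and none an adjusted p under 0.1. In Act88FKM88 Vha100-3 was lower (-0.13 ± 0.08), where 10.0% of all probe sets were lower with no overlap. In Mhc7 Vha100-3 was higher (0.13 ± 0.08), as was Vha100-4 (0.20 ± 0.12), and VhaAC39-2 was lower (-0.16 ± 0.11), where 11.8% and 10.3% of all probe sets were higher and lower.

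The other 3 were above 4 in at least 1 array. Vha100-1, the subunit a copy known from neurons, had 4.45, 4.36 and 4.90 in Canton-S, 5.15, 5.30 and 4.84 for Act88FKM88 and 4.70, 5.29 and 5.27 for Mhc7. Its differences of 0.53 ± 0.20 (limma adjusted p = 0.262) and 0.52 ± 0.20 (limma adjusted p = 0.227) did not pass. Among 7 measured markers of neurons and glia, 6 were below 4 in every array, and their summed level was 6.02 to 6.22 in Canton-S, 6.05 to 6.21 for Act88FKM88 and 5.94 to 6.19 for Mhc7. VhaM9.7-c, a copy of subunit e, lay between 4.26 and 4.98. VhaAC45RP, related to VhaAC45, had 3.76, 4.53 and 3.32 in Act88FKM88 against 3.15, 3.36 and 2.97 in Canton-S, a difference of 0.71 ± 0.26 (limma adjusted p = 0.232), with 1 array well above the others.

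**Figure D5:**
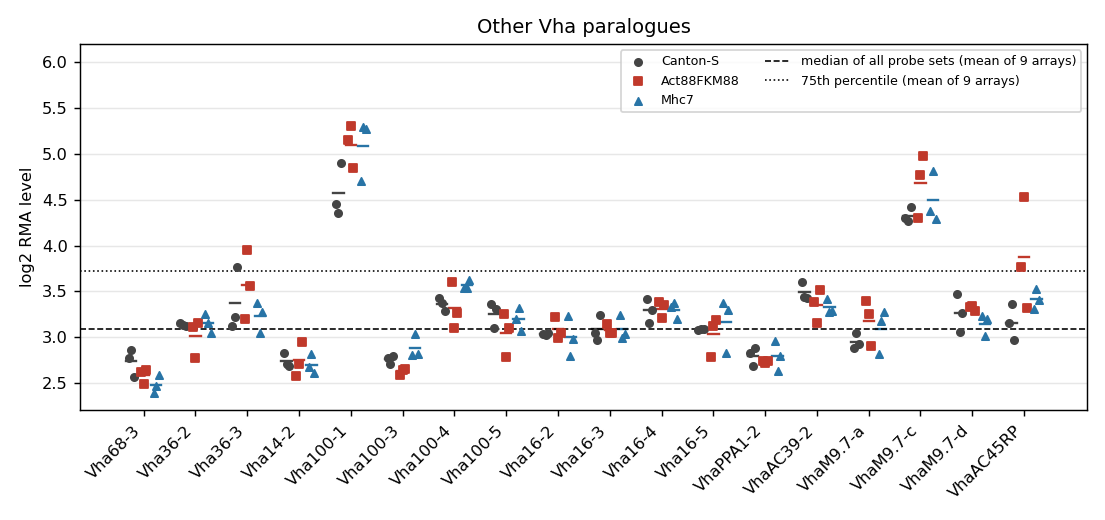
Log2 RMA level (vertical axis) of the 18 further Vha paralogues in each array, with bars for the means of 3 arrays. Dashed and dotted lines give the median and the 75th percentile of all probe sets; 15 of the genes stay below 4 in all arrays, and Vha100-1, VhaM9.7-c and VhaAC45RP exceed it.

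Neighbouring copies differed in this respect. In the RefSeq annotation (Release 6 plus ISO1 MT) no gene starts between Vha100-4 and Vha100-2 on chromosome arm 3R, yet Vha100-4 stayed between 3.10 and 3.62 while Vha100-2 stayed at 8.59 or above. VhaPPA1-2 and VhaPPA1-1, on the same arm with 1 gene starting between them, showed the same contrast of a copy near background beside a copy with clear signal. Vha16-3 and Vha16-2 on arm 3L both stayed between 2.79 and 3.24.

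Of the assembly and TORC1 partners of the pump, 14 of 19 were measured, with a median difference of 0.33 in Act88FKM88 and 0.29 in Mhc7, beside -0.03 and -0.01 over all probe sets. Differences were positive for 12 of the 14 in Act88FKM88 and 11 in Mhc7, against 42.7% and 46.0% of all probe sets. Among the 1236 probe sets with a mean of at least 7, 1032 and 1086 were positive, with medians of 0.39 and 0.55. Only Lamtor4 of the list had a mean that high. Whether the list differed from other genes of like level was not tested. Of the 14 partners, 1 was called higher in Act88FKM88 and 0 lower, where 1.48% and 0.330% of all probe sets were. This was Lamtor5, a subunit of the Ragulator complex that holds TORC1 partners at the lysosome. Its levels were 4.55, 5.29 and 5.39 in Canton-S, 6.27, 6.62 and 6.34 for Act88FKM88, and 6.04, 5.83 and 5.76 for Mhc7. The difference of 1.33 ± 0.21 (limma adjusted p = 0.0105) was not called by SAM or with centring on ribosomal protein genes (0.82). In Mhc7 no member of the list was called in limma (6 higher and 0 lower at an unadjusted p under 0.05, against 10.3% and 6.52% of all probe sets). There Lamtor3 gave 0.88 ± 0.11 (limma adjusted p = 0.00255) and Lamtor4 0.82 ± 0.09 (limma adjusted p = 0.00176), both under 2-fold. By adjusted p alone, 3 of the 14 were higher and 0 lower in each mutant. Over all probe sets 3.94% were higher and 1.14% lower in Act88FKM88, and 5.58% and 1.52% in Mhc7. At an unadjusted p under 0.05, 7 were higher and 0 lower in Act88FKM88, where 8.96% and 5.67% of all were. Lamtor3 and Lamtor4 also stood above Canton-S in Act88FKM88 (means of 6.07 against 5.32 and 7.59 against 6.98). Lamtor5 stood above it in Mhc7 (5.87 against 5.07). Mitf, which activates V-ATPase genes in flies, was near background in all genotypes, at 2.65 in Canton-S, 2.67 for Act88FKM88 and 2.51 for Mhc7.

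Lysosomal proteins, of which 23 of 32 were measured, had medians of 0.13 in Act88FKM88 and 0.03 in Mhc7. In Act88FKM88, 1 of the 23 was called higher and 0 lower, where 1.48% and 0.330% of all probe sets were. By adjusted p alone 3 were higher and 0 lower there, where 3.94% and 1.14% of all were. At an unadjusted p under 0.05 limma gave 6 higher and 0 lower, where 8.96% and 5.67% of all were. The called gene was Npc2b, a sterol-binding protein of the Niemann-Pick type C2 family. Npc2b stood at 5.99, 7.18 and 7.03 in Canton-S and 8.74, 8.15 and 8.39 in Act88FKM88. Its difference of 1.69 ± 0.39 (limma adjusted p = 0.0589) was not called without Canton-S 1 (limma adjusted p = 0.176), Act88FKM88 1 (0.187) or Act88FKM88 3 (0.111), nor by SAM. In Mhc7 none was called in limma (6 higher and 3 lower at an unadjusted p under 0.05, against 10.3% and 6.52% of all probe sets). By adjusted p alone 4 were higher and 1 lower in Mhc7, where 5.58% and 1.52% of all were. The 2 with the smallest p there were the saposin gene Sap-r (0.54 ± 0.11, limma adjusted p = 0.0204) and the cathepsin gene CtsK1 (-0.83 ± 0.18, limma adjusted p = 0.0343). CtsK1 was called higher in Act88FKM88 than in Mhc7 (1.02 ± 0.18, limma adjusted p = 0.0236), a call that ended without Act88FKM88 1, where the limma adjusted p no longer passed. The difference was below 2-fold without Act88FKM88 2 (0.84), without Mhc7 1 (0.90) and with centring on ribosomal protein genes (0.95).

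Proton, chloride and carbonate partners, all 12 measured, gave no call in limma in any comparison. At an unadjusted p under 0.05, 2 of 12 were higher in Act88FKM88 and 1 in Mhc7 than in Canton-S, where 8.96% and 10.3% of all probe sets were. The chloride transporter gene ClC-c gave 0.91 ± 0.18 in Act88FKM88 (limma adjusted p = 0.0295), and the sodium-proton exchanger gene Nhe3 gave 0.86 ± 0.24 (limma adjusted p = 0.106) there and 0.65 ± 0.24 in Mhc7 (limma adjusted p = 0.198). The mitochondrial ATP synthase, a related rotary machine that runs in the direction of ATP synthesis, also had no called gene among 16 measured of 17 (limma). At an unadjusted p under 0.05, 2 of its genes were higher in Act88FKM88 and 7 in Mhc7, where 8.96% and 10.3% of all probe sets were. Its medians were 0.17 in Act88FKM88 and 0.27 in Mhc7, over a list in which 4 genes lay below 4 in every array. The largest differences in the list were ATPsynbeta at 0.33 ± 0.12 in Act88FKM88 (limma adjusted p = 0.221) and the ring subunit gene ATPsynC at 0.52 ± 0.12 in Mhc7 (limma adjusted p = 0.0461). Both lay below the medians of 0.39 and 0.55 over probe sets with a mean of at least 7. Canton-S 1 was the lowest wild-type array for each ATP synthase gene at that level, with ATPsynC at 13.36 against 13.80 and 13.76.

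Other tissues that carry V-ATPase could contribute RNA to dissected muscle, and in bulk tissue fewer cells of a type and less RNA per cell cannot be told apart. Trachea and epidermis markers, 7 of 8 measured, had a summed level of 9.18 to 9.94 (log2) in Canton-S, 8.43 to 9.89 for Act88FKM88 and 7.78 to 10.26 for Mhc7, with none called, knk lower below 2-fold in both mutants (-0.57 ± 0.11 and -0.58 ± 0.11) and obst-A below 4 in every array. Gut markers, 9 of 12 measured, summed to 6.25 to 6.39 in Canton-S, 6.17 to 7.40 for Act88FKM88 and 6.15 to 7.77 for Mhc7, with 5 below 4 in every array and none called. The rest, Mal-A1, Jon65Aiv, Jon25Biii and lambdaTry, exceeded 4 in Mhc7 1, and Mal-A1 also in Act88FKM88 1, but in no other array. Mal-A1 stood at 6.14 and 6.64 in these arrays, against 3.19, 2.98 and 3.13 in Canton-S. Both measured markers of the Malpighian tubule, Irk3 and ZnT35C, stayed below 4. Fat body markers summed to 7.26 to 9.53 in Canton-S, 8.47 to 8.84 for Act88FKM88 and 8.08 to 10.34 for Mhc7. Of the 6, 1 was called higher in Act88FKM88, where 1.48% of all probe sets were. This was the fatty acid synthase gene FASN1 (1.07 ± 0.27, limma adjusted p = 0.0801). Hemocyte markers had 4 of 7 below 4 and summed to 6.44 to 6.65, 6.51 to 6.93 and 6.21 to 6.38, and testis markers had 10 of 11 below 4 and summed to 6.59 to 7.25, 7.004 to 7.008 and 6.69 to 6.77, in the order Canton-S, Act88FKM88 and Mhc7, with none called in either list. Whether these tissues had a part the pump gene differences was not tested.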

How the data were processed

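Flight muscle RNA of 9 arrays (3 genotypes, 3 arrays each) was labelled from 6 µg of total RNA, per the labels. The values deposited by the authors are log2 expression estimates, 1 for each probe set on each array, made with RMA per the submitters' processing notes. The sources used here give neither the RMA version nor whether all arrays were normalized together. Precision is limited by the number of arrays. The 183 control probe sets were left out and 18769 were tested with no filter on level. Of these, 13647 have 1 gene in the platform annotation, 402 several and 4720 none.

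In R 4.3.3, limma 3.58.1 fitted genotype means over the 9 arrays together (moderated variance, two-sided p, Benjamini-Hochberg over all probe sets). A call needs an adjusted p under 0.1 and at least 2-fold, as the study states. SAM, the test the study names, was written from its published description and used as an alternative. Both were tested on simulated data. The members, the gene lists, the classes of paralogues and the tests were chosen with earlier results of these data known. Every member is named, and of the other lists up to 3 called genes per direction, or the 2 with the smallest p. Genes named beyond that were chosen after their values were seen (Mitf, Zasp66, TpnC4, knk, obst-A, Mal-A1, Jon65Aiv, Jon25Biii, lambdaTry, Irk3, ZnT35C and FASN1). Alternatives covered thresholds, filters, scalings, the variance prior, array weights, probe set averaging, SAM, the replicate block and each array left out. Promoter motifs were planned and not analysed here.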

Additional observations from a re-analysis of the deposited data

How the results depend on the processing

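Without the 2-fold minimum, 9 pump genes were higher in Act88FKM88 and 7 in Mhc7 than in Canton-S, and over all probe sets 953 and 1334 were called, with 740 between the mutants (340, 524 and 336 otherwise). The counts of 3 and 1 pump genes became 0 and 0 when arrays were centred on 32 ribosomal protein genes, under repeated quantile normalization and under cyclic loess. Centring moved the median of the 31 members to -0.22 in Act88FKM88 and -0.27 in Mhc7 (0.29 and 0.17 otherwise), with 512 probe sets called in Act88FKM88 against Canton-S (127 higher and 385 lower, against 278 and 62) and 512 between the mutants. In Mhc7, 266 probe sets were called after repeated quantile normalization (144 up, 122 down) and 278 after cyclic loess (158 up, 120 down), against 451 up and 73 down. SAM called 176 in Act88FKM88. With probe sets below a mean of 7 removed, a choice made after the data were seen, 156, 305 and 159 were called in the 3 comparisons, and the members' medians were 0.82 and 0.61, because the further paralogues drop out. The F-test gave 4 members with a variance prior that follows intensity and 4 with cyclic loess, against 8.

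Leaving out 1 array at a time gave 1 to 5 pump genes higher in Act88FKM88, 0 to 2 in Mhc7 and 0 between the mutants, with 0 lower in each. The medians ran from 0.18 to 0.37, 0.15 to 0.22 and 0.004 to 0.14, the counts over all probe sets from 218 to 390, 396 to 648 and 192 to 400, and the F-test count from 5 to 11. Leaving out Canton-S 1 and Act88FKM88 3 together, also chosen after the data were seen, left 4 and 1 pump genes higher. By adjusted p alone, the variance prior that follows intensity left 5 pump genes higher in Act88FKM88 and 4 in Mhc7, and leaving out Act88FKM88 3 gave 11 in Act88FKM88. Same-numbered arrays of different genotypes had deviations correlated at r = -0.32 to 0.43, and other-numbered arrays at r = -0.38 to 0.27. The main fit therefore used no pairing, although ranges this wide cannot exclude a batch shared by replicate number. With a replicate block 3 and 1 pump genes were higher and 345, 532 and 340 probe sets were called, and the block ended no call of a named gene.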
